A study of Oncorhynchus mykiss with 15 samples.

Results

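MicroRNA levels were compared between the liver of rainbow trout (Oncorhynchus mykiss) held for 12 h in hypoxia and the liver of control trout, with 3 libraries in each group and so 6 of the 15 libraries of the study. The fish of both groups are labelled wild-type, and the labels give no strain, age, oxygen level or temperature. The other libraries came from fish after 3 h or 24 h of hypoxia and after 3 h of reoxygenation, again 3 each. All rows of the deposited table were used, and rows with the same values in all 15 libraries were counted once as 1 profile. This left 1019 profiles out of 1213 rows. Tests were run on the 622 profiles whose mean over the 15 libraries reached 10. Nothing in the labels says whether the libraries came from separate fish, so each p-value rests on the spread among these libraries, which may be technical.

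A microRNA is cut from a hairpin precursor, and either strand of the cut duplex, the 5p or the 3p arm, can be loaded into an Argonaute protein. It then pairs with messenger RNAs mainly through its seed, the stretch of bases 2 to 8, so microRNAs with the same seed share many predicted targets. In vertebrate liver the most abundant microRNA is usually miR-122 of hepatocytes, while other microRNAs mark the vessels, the connective tissue or the blood held in the organ. In bulk tissue such as this, fewer cells of a type and less RNA per cell cannot be told apart.

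Each profile is named by a species prefix, the matched miRNA and any changes from that entry. The prefix ssa stands for Atlantic salmon, the closest relative of trout among the prefixes, R+1 or R-1 marks an end that is longer or shorter by that number of bases, and a part such as 1ss10AG marks a substituted base. PC marks a candidate that the authors predicted. Levels are the deposited values, which were normalized by the authors to a scale that is not given in the sources used here. Changes are log2 differences of level + 1, 12 h hypoxia minus control, and a profile is said to have risen or fallen where the limma adjusted p (Benjamini-Hochberg) was under 0.05.

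The sequences of 16 salmon-named microRNAs that rose or fell at 12 h are shown 5′ to 3′, with the seed in capitals. Several of those that rose share a seed. All 3 that fell are 3p arms, and those of let-7h and miR-125a were less abundant than the 5p arm in both groups. The sequences are given as in the deposited table. The first 13 rose and the last 3 fell.
ssa-miR-19a-3p_R+1: tGTGCAAAtctatgcaaaactgt
ssa-miR-19c-3p: tGTGCAAAtccatgcaaaactg
ssa-miR-101b-3p_R+1: tACAGTACtatgataactgaag
ssa-miR-101a-3p: tACAGTACtgtgataactgaag
ssa-miR-152-3p: tCAGTGCAtaacagaactttg
ssa-miR-130a-3p: cAGTGCAAcaatgaaagggca
ssa-miR-130d-3p: cAGTGCAAtattaaaagggca
ssa-miR-301d-3p: cAGTGCAAtagtattgtcaaagc
ssa-miR-135b-5p: tATGGCTTtctattcctatgtga
ssa-miR-135c-5p: tATGGCTTtttattcctacgtga
ssa-miR-181a-1-3p: aCCATCGAccgttaaatgtacc
ssa-miR-126-3p: tCGTACCGtgagtaataatgca
ssa-miR-140-5p: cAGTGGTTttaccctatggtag
ssa-let-7h-3p_1ss4TG: cTAGACAActtactgccttcct
ssa-miR-33a-3p: cAATGTGTctgcagtgcagta
ssa-miR-125a-3p: aCGGGTTGggttctcgggagct

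The libraries differed in more than single microRNAs. The summed level over all profiles was 5734503, 5766802 and 5764189 at 12 h, and 4385366, 2491954 and 2090585 in control, so every 12 h total was above every control total. Without miR-122 the totals overlapped, at 2517055, 2553018 and 2293540 at 12 h and 2996977, 1654413 and 1574158 in control. Library 1 stood apart in both groups. The SD, over profiles, of the log2 difference between libraries was 1.43 and 1.47 for pairs with 12 h library 1 and 1.07 for the remaining pair, and in control it was 1.92 and 1.79 for pairs with library 1 and 1.09 for the remaining pair. The number of reads behind a value is unknown, so no counting interval is given. The label liver was matched by the marker miRNAs: the hepatocyte markers miR-122, miR-192, miR-194, miR-148, miR-101 and miR-22 together made up 65.3%, 64.2% and 68.4% of the total at 12 h and 43.6%, 40.8% and 33.8% in control. Of these 6 markers miR-122 alone had a higher share in every 12 h library. miR-192 was lower without overlap, at 0.655%, 0.677% and 0.646% at 12 h and 0.898%, 0.740% and 0.869% in control, and the shares of the other 4 overlapped.

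**Figure D1:**
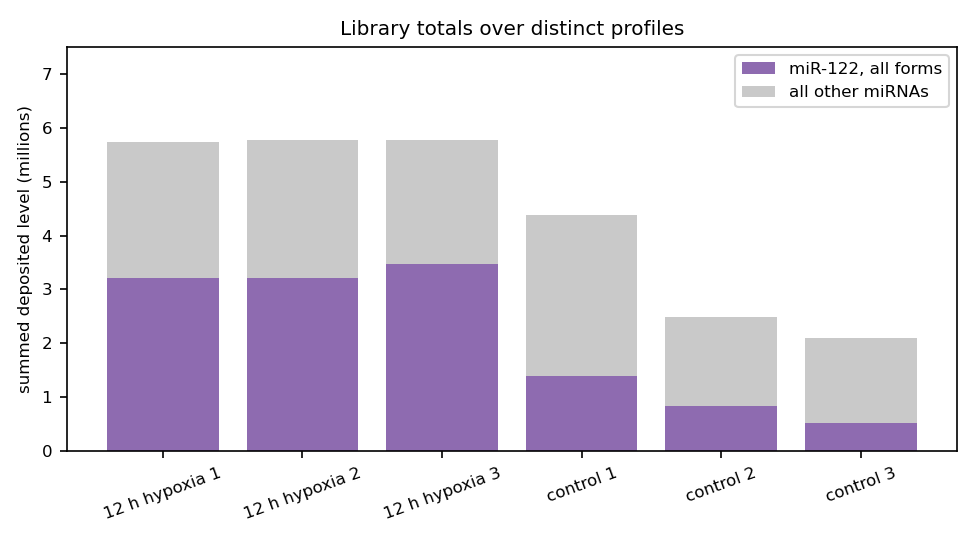
Summed deposited level over distinct profiles in each library as a stacked bar, split into miR-122 (all forms) and all other microRNAs, for the 3 libraries of 12 h hypoxia and the 3 control libraries. The miR-122 part ranged from 55.7% to 60.2% at 12 h and from 24.7% to 33.6% in control, and the part without miR-122 overlapped between the groups.

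miR-122, which in mammals and fish is made by hepatocytes and acts on lipid metabolism, took a larger share of the total at 12 h. Its share over all forms was 56.1%, 55.7% and 60.2% at 12 h, and 31.7%, 33.6% and 24.7% in control, so the groups did not overlap. The mean share was 57.3% ± 2.49 at 12 h and 30.0% ± 4.68 in control (SD, n = 3 each), a difference of 27.4 percentage points. The exact two-sided permutation p was 0.1, the smallest that 3 libraries against 3 can give. As a level, the main form ssa-miR-122-5p_R-1 was at 3213546, 3210124 and 3464852 at 12 h, against 1386724, 834238 and 512308 in control. Its log2 difference of 1.97 ± 0.62 (SE) was not past the threshold over all profiles (limma adjusted p = 0.0699).

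At 12 h limma called 43 of 622 profiles different from control, which is 6.91%. Of these, 29 were higher (4.66%) and 14 lower (2.25%). The 2 groups did not overlap in any of the 43, but this was so for 249 of the 622 tested profiles (40.0%). An unadjusted p under 0.05 was reached by 165 profiles. Without library 1, 2 or 3 of 12 h hypoxia, 10, 16 and 20 profiles were called, and without library 1, 2 or 3 of control, 81, 10 and 21. The median change over all tested profiles was -0.19. Salmon-named profiles made up 23 of the 29 that were higher and 3 of the 14 that were lower, against 256 of all 622 tested. Scaled to the library total, the median moved to -1.19 and the calls became 3 higher and 26 lower. All 29 higher calls kept their sign under that scaling, and 3 of them stayed past the threshold: ssa-miR-101b-3p_R+1, ssa-miR-152-3p and ssa-miR-181a-1-3p. All 14 lower calls stayed past it.

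**Figure D2:**
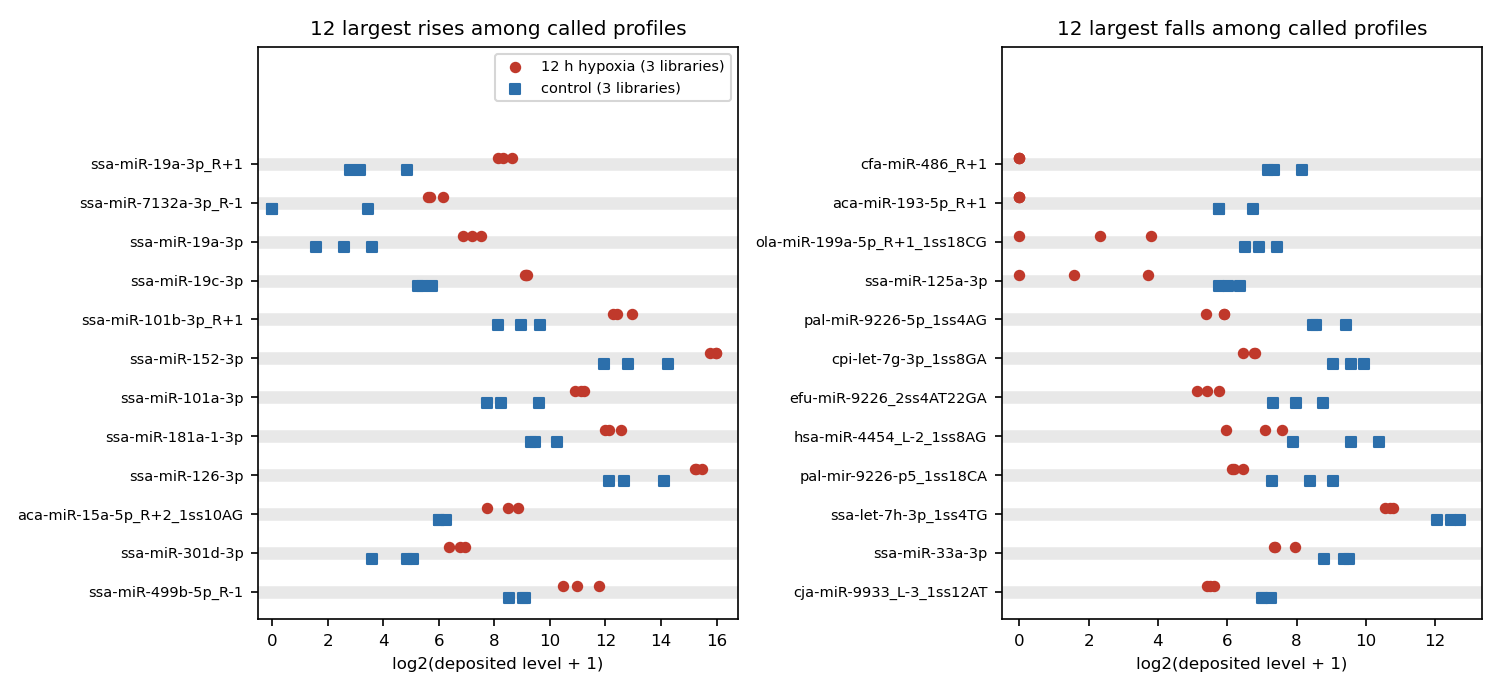
Level in each library, as log2 of the deposited value + 1, of the 12 largest rises and the 12 largest falls among called profiles with no overlap between groups and a mean of 50 or more in the higher group. Circles are the 3 libraries of 12 h hypoxia and squares the 3 control libraries, and the 2 sets are apart in each line, from ssa-miR-19a-3p_R+1 with a log2 change of 4.75 to cfa-miR-486_R+1, which is at 0 in every 12 h library.

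The largest rises included those of miR-19a and miR-19c, members of the miR-17-92 family of clusters that in mammals promote cell growth. ssa-miR-19a-3p_R+1 was at 315, 283 and 394 at 12 h, against 28, 8 and 6 in control, and its shorter form ssa-miR-19a-3p was at 146, 115 and 184, against 11, 2 and 5. Every 12 h library was above every control library in both forms. The log2 changes were 4.75 ± 0.91 (SE) and 4.61 ± 0.88 (limma adjusted p = 0.00806 for each). ssa-miR-19c-3p, with the same seed, was at 571, 552 and 565 at 12 h, against 53, 37 and 41 in control. Both groups were tight, and the log2 change was 3.67 ± 0.68 (SE, limma adjusted p = 0.00806). All 3 calls held when any 1 of the 6 libraries was left out.

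miR-19d, the most abundant member with this seed, was not called. ssa-miR-19d-3p made up 71.7% of the summed level of the 8 profiles with the seed GTGCAAA at 12 h and 92.6% in control. Its log2 difference was 0.82 (95% confidence interval -0.58 to 2.22, limma adjusted p = 0.435). Summed over all 8 profiles, the seed differed by 1.17 ± 0.66 (SE), which was not past the threshold (limma adjusted p = 0.253). The family sums, over all forms of 1 miRNA and arm, were called for miR-19a-3p (4.77) and miR-19c-3p (3.53), among 36 of 449 families in all (8.02%), of which 26 were higher (5.79%) and 10 lower (2.23%). Sums over all profiles of a seed were called for 27 of 363 seeds (7.44%), 15 higher (4.13%) and 12 lower (3.31%). Of the other members of the clusters, the seed AAAGTGC of miR-17, miR-20, miR-93 and miR-106 differed by 0.20 and the seed ATTGCAC of miR-25, miR-92 and miR-363 by -0.70 (limma adjusted p = 0.622 and 0.111). In the whole list of miR-17-92 family clusters, 4 of 38 tested profiles were higher and 0 lower, against 4.66% higher and 2.25% lower over all tested profiles. All 4 were forms of miR-19a or miR-19c, and the list's median change of -0.18 lay beside -0.19 over all tested profiles. Of the 4, dre-miR-19c-3p_R-1 reached the minimum mean of 10 only through its 12 h levels.

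Both miR-101a and miR-101b rose, and so did their shared seed. miR-101 is abundant in mammalian hepatocytes, where it represses the histone methyltransferase gene Ezh2. ssa-miR-101b-3p_R+1 was at 7889, 4963 and 5526 at 12 h, against 803, 277 and 499 in control. The groups were far apart, and the log2 change of 3.64 ± 0.48 (SE) had the smallest limma adjusted p of all profiles, 0.00114. ssa-miR-101a-3p was at 2371, 1929 and 2242, against 771, 214 and 302, a log2 change of 2.56 ± 0.50 (SE, limma adjusted p = 0.00848). Without control library 2 the call of miR-101a was lost (limma adjusted p = 0.0565). The less abundant forms gmo-miR-101a-3p_R+1_1ss22TG and gmo-miR-101a-3p differed by 1.91 and 2.42 without overlap. Neither was called (limma adjusted p = 0.109 and 0.0634). Summed over 5 profiles, the seed ACAGTAC was at 10371, 6981 and 7873 at 12 h and 1629, 500 and 821 in control, and rose by 3.24 ± 0.47 (SE, limma adjusted p = 0.00178).

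miR-152, which in mammals represses the DNA methyltransferase gene Dnmt1, rose while miR-148a, of the same seed, was not called. ssa-miR-152-3p was at 64023, 64583 and 54967 at 12 h, against 19631, 3959 and 7139 in control. No 12 h library overlapped a control library. The log2 change was 2.89 ± 0.55 (SE, limma adjusted p = 0.00806). The next most abundant form, ola-miR-152_R-1, was at 7322, 9468 and 8633, against 8005, 1473 and 2276. Its groups overlapped and it was not called (1.49, limma adjusted p = 0.121). The family miR-152-3p, summed over 5 forms, rose by 2.63 (limma adjusted p = 0.0118). ssa-miR-148a-3p_R-1 was at 48128, 64902 and 53207 at 12 h and 75400, 19471 and 28781 in control, with overlapping groups and a log2 difference of 0.66 ± 0.48 (SE, limma adjusted p = 0.389). Its share of the seed's summed level was 44.2% at 12 h and 74.2% in control. The whole seed, with 8 profiles, differed by 1.44 and was not called (limma adjusted p = 0.1).

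Of the 7 profiles with the seed of miR-130, miR-301 and miR-454, 3 rose as single profiles, and the seed rose as a sum. In mammals these microRNAs act in vessels, fat cells and fibrosis. ssa-miR-130a-3p was at 1486, 1967 and 2068 at 12 h and 243, 588 and 682 in control. ssa-miR-130d-3p was at 371, 353 and 379, against 56, 67 and 165. ssa-miR-301d-3p was at 109, 81 and 123, against 11, 28 and 33. None of these 3 overlapped between the groups, and their log2 changes were 1.98, 2.09 and 2.19 (limma adjusted p = 0.041, 0.0193 and 0.0344). The 7 profiles of the seed AGTGCAA ran from 0.64 to 2.19 and summed to a rise of 1.44 ± 0.38 (SE, limma adjusted p = 0.0332). The other 4, ssa-miR-130a-2-3p_R-1_1ss9TC, ssa-miR-130b-3p_R+1_1ss21AT, ssa-miR-301a-3p and ssa-miR-454-3p_R-2, were not called (1.60, 1.09, 0.95 and 0.64). The opposite arm ssa-miR-130b-5p rose too, by 1.72. The call of miR-301d was lost without any 1 of the 12 h libraries and without control library 2. Among all profiles that rose, miR-130a, miR-130b-5p, miR-130d, miR-135b, miR-135c, miR-140, miR-126-5p, dre-miR-19c-3p_R-1, ssa-miR-15a-5p_L-2_1ss18GA, miR-29b, miR-190a, miR-722, miR-187, miR-10014 and both predicted candidates were named because they passed, after their values were seen.

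**Figure D3:**
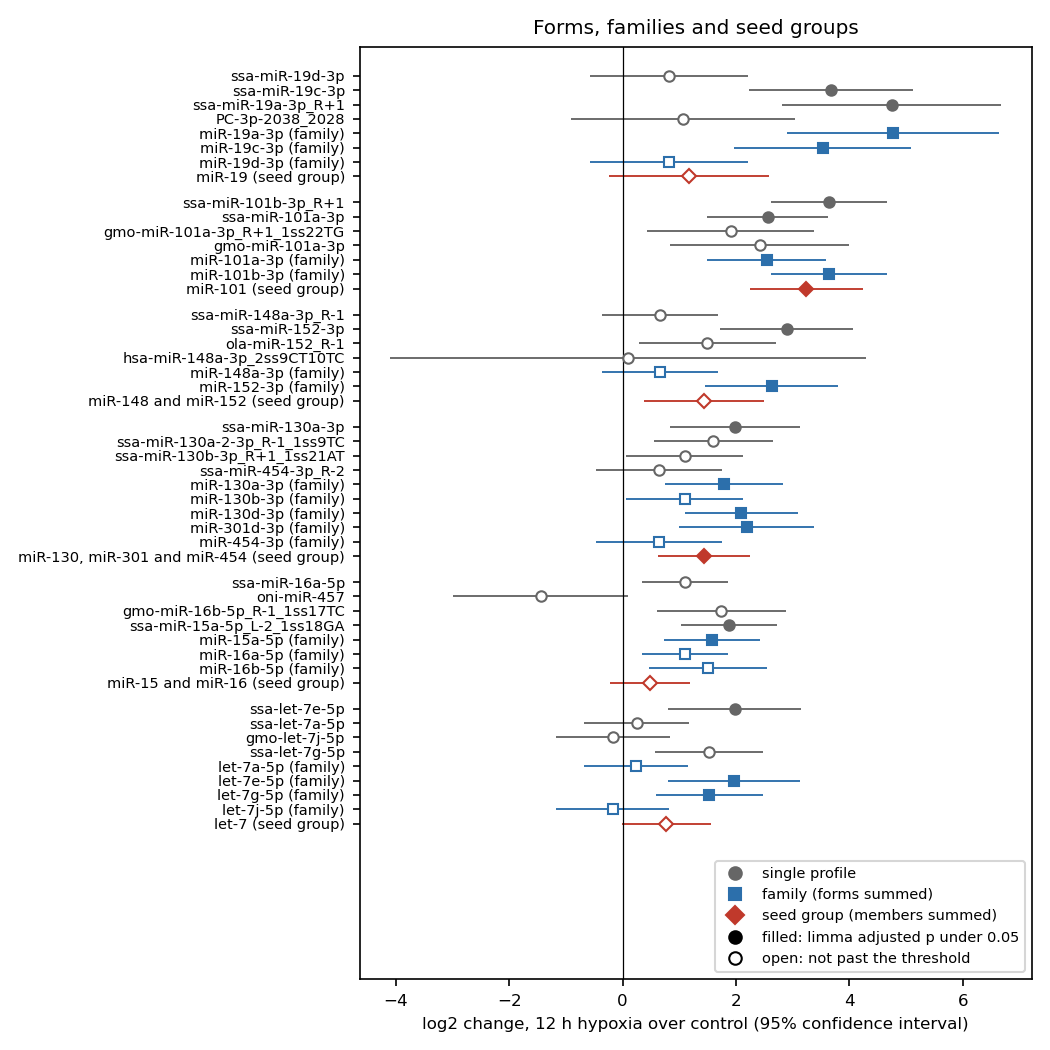
Log2 change, 12 h hypoxia over control, with 95% confidence intervals, for single profiles (up to 4 most abundant per seed), families (forms of 1 miRNA and arm summed) and seed groups (all profiles with that seed summed). Filled symbols had a limma adjusted p under 0.05. The miR-101 seed (3.24) and the miR-130, miR-301 and miR-454 seed (1.44) are filled, while the miR-19 (1.17), miR-148 and miR-152 (1.44), miR-15 and miR-16 (0.48) and let-7 (0.77) seeds are open although some of their members are filled.

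miR-181a-1-3p, the arm opposite to the abundant miR-181a-5p, rose by 2.54 ± 0.40 (SE, limma adjusted p = 0.00376), with levels of 4097, 5975 and 4428 at 12 h, against 1221, 640 and 702 in control. The 3 other tested forms of miR-181a-3p, ssa-miR-181a-2-3p, ssa-miR-181a-5-3p and tni-miR-181a-3p, differed by -0.46, -0.20 and -0.36 and were not called. The call held in 22 of 22 other settings of the analysis, as did that of ssa-miR-101b-3p_R+1. The seed ATGGCTT, held by miR-135b and miR-135c, rose by 1.94 ± 0.34 (SE, limma adjusted p = 0.00521), with ssa-miR-135c-5p at 1050, 742 and 796 at 12 h and 202, 155 and 225 in control. ssa-miR-135b-5p was at 600, 658 and 622, against 154, 227 and 196. ssa-miR-140-5p, best known from cartilage, was at 1867, 1591 and 1404, against 677, 528 and 382, and rose by 1.64.

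The endothelial microRNA miR-126, which lies in an intron of the vessel gene Egfl7 in vertebrates, rose in both arms. ssa-miR-126-3p was at 38257, 46077 and 39432 at 12 h, against 17543, 4504 and 6521 in control (log2 change 2.36 ± 0.63, SE, limma adjusted p = 0.0385). ssa-miR-126-5p was at 2822, 2983 and 3027, against 653, 545 and 1050 (2.03 ± 0.47, SE, limma adjusted p = 0.0207). As a share of the total, all miR-126 together was 0.718%, 0.851% and 0.738% at 12 h and 0.416%, 0.203% and 0.362% in control. The stromal markers miR-143, miR-145, miR-199 and miR-214, also of non-hepatocyte cells, went the other way as a summed share. It was 1.76% to 2.08% at 12 h and 2.88% to 5.73% in control, though the single shares of miR-145 and miR-214 overlapped. As levels, the families miR-143-3p, miR-145-5p and miR-199a-3p differed by 0.43, 0.27 and 0.56. The families miR-199a-5p and miR-214-3p differed by -0.90 and -1.52, and none of these was called. The part of cell composition in these values was not tested. The call of ssa-miR-126-3p was lost without any 1 of the 3 libraries of 12 h hypoxia and without control libraries 2 or 3, and stayed without control library 1.

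Of the other profiles that rose, ssa-miR-499b-5p_R-1, from a family that lies in myosin genes of muscle, was at 1429, 3447 and 2022 at 12 h, against 546, 529 and 367 in control (2.18, limma adjusted p = 0.0129). Its call was lost without library 2 of 12 h hypoxia (limma adjusted p = 0.0664). Of the other muscle markers, miR-133 was at 29, 29 and 58 at 12 h and 48, 96 and 106 in control, with overlapping groups, and miR-1 at 42, 47 and 97, against 28, 8 and 17, without overlap. miR-206 was at 0, 0 and 7, against 0, 16 and 16, with overlap. The part of muscle RNA in the change of miR-499b was not tested. ssa-miR-15a-5p_L-2_1ss18GA and aca-miR-15a-5p_R+2_1ss10AG, of the miR-15 and miR-16 family that represses Bcl2 in mammals, rose by 1.87 and 2.29, the second called in just 1 of 6 fits with a library left out. Another profile named for miR-15a, dre-miR-15a-5p_R+1, differed by -1.41 (limma adjusted p = 0.148), and the whole seed AGCAGCA of 15 profiles by 0.48 (limma adjusted p = 0.337). ssa-let-7e-5p rose by 1.97 and held 50.1% of the let-7 seed GAGGTAG at 12 h and 24.1% in control, while ssa-let-7a-5p differed by 0.25 and the seed by 0.77 (limma adjusted p = 0.182). ssa-miR-29b-3p, which represses collagen genes in mammals, rose by 1.63, ssa-miR-190a-5p_R-2 by 3.96, the fish microRNA ssa-miR-722-3p_L+3R-3 by 1.53, tni-miR-187_R+3 by 2.10 and pal-miR-10014-5p_R+1 by 2.00. Some risen profiles were near or at 0 in control: ssa-miR-7132a-3p_R-1 was at 70, 50 and 48 at 12 h and 0, 0 and 10 in control, ssa-miR-190a-5p_R-2 at 38, 28 and 32, against 0, 0 and 9, and dre-miR-19c-3p_R-1, PC-3p-13958_144 and PC-3p-13989_144 were listed at 0 in all 3 control libraries. At 12 h, dre-miR-19c-3p_R-1 was at 26, 29 and 25, and PC-3p-13958_144 at 23, 27 and 60. These 2 profiles reached the minimum mean of 10 over the 15 libraries only through those 12 h levels. The call of miR-7132a was lost in 5 of the 6 fits with a library left out.

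The 14 profiles that fell had median levels of 43.8 at 12 h and 238.5 in control, against 64.2 and 80.8 over all tested profiles. In each 12 h library, cfa-miR-486_R+1, a red blood cell microRNA from the ankyrin gene Ank1 of mammals, was listed at 0, against 285, 145 and 161 in control (limma adjusted p = 0.00451). It is matched to a dog entry, has a GC content of 63.6% and is 1 of the 6 called falls among profiles named for mammals alone. No fold is given against a group at 0. cfa-miR-486_R+1 was also at 0 in every 24 h library, and at 65, 0 and 0 after reoxygenation. The other red blood cell markers were above 0 in every library, with levels that overlapped between the groups. miR-451 summed to 4803, 4923 and 6924 at 12 h and 2576, 2431 and 7172 in control, and miR-144 to 342, 386 and 512, against 423, 434 and 675. As a share of the total, miR-144 was lower without overlap, at 0.006%, 0.0067% and 0.0089% at 12 h and 0.0096%, 0.0174% and 0.0323% in control. The shares of miR-451 overlapped. aca-miR-193-5p_R+1 was also listed at 0 at 12 h, against 53, 53 and 106 in control (limma adjusted p = 0.0494), and its call was lost when any 1 library was left out. It too was at 0 in every 24 h library. Of all 1019 profiles, 35 were listed at 0 in all 12 h libraries and above 0 in all controls, and 10 the other way round. Profiles at 0 in single libraries numbered 362, 248 and 263 at 12 h and 311, 156 and 125 in control. Of the 35, 21 carry a mammal prefix and 19 are named for mammals alone, as are 168 of all 1019 profiles. The median GC content of the 35 is 57.1%, against 47.6% over all tested profiles. In reoxygenation library 1, 26 of them are above 0, against 8 and 6 in reoxygenation libraries 2 and 3. Of the 10, none carries a mammal prefix, and the median GC content is 38.4%.

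ola-miR-199a-5p_R+1_1ss18CG, a variant of a stromal microRNA that in mammals represses the hypoxia factor gene Hif1a, was at 0, 4 and 13 at 12 h, against 121, 173 and 91 in control, a log2 change of -4.92 ± 0.97 (SE, limma adjusted p = 0.00906). The main form ssa-miR-199a-5p was at 20873, 30585 and 33661, against 47447, 78255 and 37473, a difference of -0.90 that was not called (limma adjusted p = 0.215). The variant was at far lower levels than the main form in either group. Its call was lost without library 1 of 12 h hypoxia and without control library 2. ssa-miR-125a-3p, the less abundant arm of a let-7 cluster partner, was at 0, 12 and 2 at 12 h, against 82, 64 and 53 (-4.29 ± 1.04, SE, limma adjusted p = 0.0263). Its other copy, ssa-miR-125a-2-3p, was at 19, 14 and 22, against 71, 50 and 35, and was not called (limma adjusted p = 0.121).

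Of the let-7 profiles, 2 that fell were 3p arms and 1 that rose was a 5p arm. cpi-let-7g-3p_1ss8GA was at 111, 86 and 108 at 12 h, against 530, 762 and 976 in control (-2.85 ± 0.49, SE, limma adjusted p = 0.00543), a call that held without any 1 library. The salmon-named form ssa-let-7g-3p_1ss22CT, which has another seed, was at 127, 132 and 107, against 335, 82 and 82, and was not called (-0.11, limma adjusted p = 0.938). ssa-let-7h-3p_1ss4TG was at 1661, 1487 and 1764, against 4267, 6725 and 5618 (-1.74 ± 0.41, SE, limma adjusted p = 0.0259). The groups were apart in both profiles that fell. The family let-7g-3p fell by 2.02 and let-7g-5p rose by 1.53 (limma adjusted p = 0.00761 and 0.0457), and let-7e-5p rose by 1.97. With a GC correction of each library these 3 families differed by -1.22, 0.067 and 0.51 and none was called (limma adjusted p = 0.14, 0.938 and 0.65). In the list of let-7 microRNAs, 1 of 32 tested profiles was higher and 2 lower, against 4.66% and 2.25% over all tested profiles.

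ssa-miR-33a-3p, the opposite arm of the lipid regulator miR-33 that lies in the sterol factor gene Srebf2, was at 166, 248 and 161 at 12 h, against 444, 658 and 724 in control (-1.66 ± 0.40, SE, limma adjusted p = 0.0263). Of 7 tested profiles named miR-9226, 3 fell, with log2 changes of -3.09 for pal-miR-9226-5p_1ss4AG, -2.58 for efu-miR-9226_2ss4AT22GA and -1.98 for pal-mir-9226-p5_1ss18CA. The other 4 differed by -2.36 to -1.58 and were not called. The sequences listed for all 7 share the same stretch of bases, so their changes are not separate results. hsa-miR-4454_L-2_1ss8AG was at 61, 136 and 191, against 239, 1322 and 759 (-2.40), and cja-miR-9933_L-3_1ss12AT at 44, 48 and 42, against 128, 129 and 153 (-1.59). The calls of hsa-miR-4454, cja-miR-9933, ssa-let-7h-3p, ssa-miR-33a-3p, ssa-miR-125a-3p and the 3 miR-9226 profiles were lost when some single libraries were left out, among them library 1 of 12 h hypoxia and control library 3 in each case. ccr-miR-140-3p_L-2R+2 and PC-3p-34703_37, named because they passed, were near 0 at 12 h. The first was at 0, 9 and 0 at 12 h, against 42, 24 and 23 in control. The second was at 0, 0 and 5, against 32, 35 and 22, and reached the minimum mean of 10 only through its control levels. Their fitted log2 changes were -3.78 and -4.05, and neither profile was called with the GC correction. Profiles whose names match mammals alone made up 168 of the 1019 profiles. They held 0.187%, 0.216% and 0.171% of the total at 12 h and 0.278%, 0.648% and 1.03% in control. Of the 90 tested, 1 was higher and 6 lower, against 4.66% and 2.25% over all tested profiles, with a median change of -1.77 and a median GC content of 57.2%, against -0.19 and 47.6% over all tested profiles. The part of the origin of these reads in the falls was not tested.

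Among family sums, the largest falls after miR-486, miR-193-5p and PC-3p-34703_37 were in miR-92a-5p, the opposite arm of a miR-17-92 member, which was at 0, 8 and 26 at 12 h, against 87, 74 and 78 in control (-3.69 ± 0.93, SE, limma adjusted p = 0.0285). The groups did not overlap. Its abundant arm ssa-miR-92a-3p was at 14971, 14529 and 14246, against 22749, 19806 and 20175, and was not called. The family miR-125a-3p fell by 2.29 (limma adjusted p = 0.0321), but differed by only 0.0048 with the GC correction of each library. Of the seed sums, those of miR-126-3p (CGTACCG, 2.36), miR-499 (TAAGACT, 2.17) and miR-187 (CGTGTCT, 2.10) rose as their single members did.

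The changes followed base composition. Median GC content was 38.1% in the 29 profiles that were higher and 61.1% in the 14 that were lower, against 47.6% over all 622. The median change was 1.47 in the 39 profiles under 35% GC, -0.08 in the 121 from 45% to 50%, and -1.86 in the 74 at 60% GC and above. In a fit in which each library was corrected for its own trend with GC content, 4 profiles were higher (0.643%) and 1 lower (0.161%). These were tni-miR-187_R+3, ssa-miR-181a-1-3p and ssa-miR-101b-3p_R+1, with log2 changes of 2.77, 2.56 and 2.34 (limma adjusted p = 0.0382, 0.00953 and 0.0382), as well as ssa-miR-2188-3p_1ss14AG (2.31) and cfa-miR-486_R+1 (limma adjusted p = 0.0237). ssa-miR-2188-3p_1ss14AG had not been called without the correction. miR-19a, miR-19c and miR-152 stayed at 3.73, 3.24 and 2.16 and just missed the threshold, with limma adjusted p of 0.0614, 0.0514 and 0.0578. Among families the correction left 4 higher (0.891%) and 1 lower (0.223%), and among seeds 6 higher (1.65%) and 1 lower (0.275%), the seeds of miR-101, miR-130, miR-140, miR-181a-3p and miR-187 among the higher. The falls of hsa-miR-4454_L-2_1ss8AG and of the 3 called miR-9226 profiles became -0.22, -0.87, -0.49 and 0.09. Among rises, the families miR-722-3p, miR-29b-3p and let-7e-5p went from 1.53, 1.63 and 1.97 to 0.07, 0.65 and 0.51. None of these 3 families was called with the correction.

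**Figure D4:**
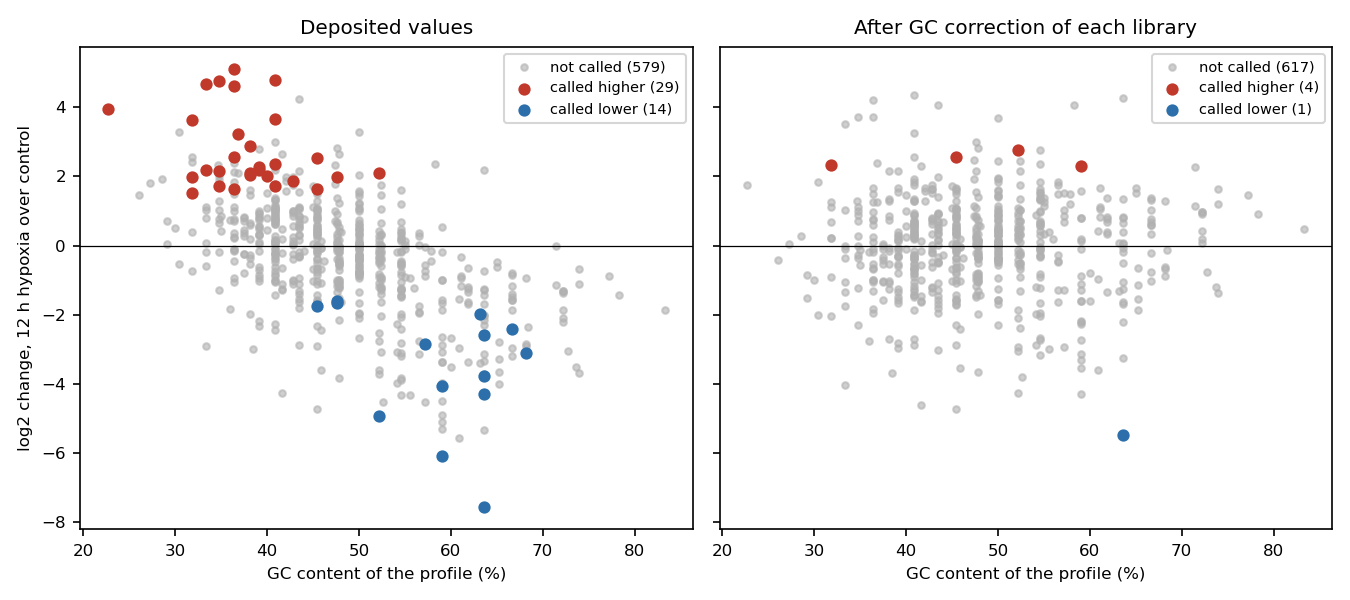
Log2 change, 12 h hypoxia over control, of each of the 622 tested profiles against its GC content in percent, from the deposited values (left) and after a GC correction of each library (right). Coloured points were called by limma, 29 higher and 14 lower on the left and 4 higher and 1 lower on the right. The downward slope on the left, from a median of 1.47 under 35% GC to -1.86 at 60% and above, is not seen on the right, where the same medians are 0.05 and 0.36.

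For the arm comparison each arm is a family sum, which can pool copies from several hairpins and forms with different seeds. Where both arms of a miRNA were measured, the ratio of the 3p to the 5p arm within each library cancels any scaling of that library. This was computed for 100 pairs, a comparison added after the data were seen, and limma called 22 of them (22.0%), 11 with a higher and 11 with a lower ratio at 12 h. The groups did not overlap in these 22, as in 50 of all 100. The median change was -0.24. The arms differed from control in opposite directions in 18 of the 22, against 48 of all 100 pairs, and choosing pairs by a changed ratio favours such pairs. In 12 of the 22 neither arm was called alone. Leaving out 1 library at a time gave 14 to 37 calls, the fewest without library 2 of 12 h hypoxia and the most without control library 1. With the GC correction 14 ratios were called, 9 of them among the 22.

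In 4 pairs the more abundant arm at 12 h was not that of control, in all 6 libraries. For miR-101b the log2 ratio of 3p to 5p was 1.56, 0.65 and 1.07 at 12 h, against -2.03, -3.86 and -2.99 in control, so the 3p arm dominated at 12 h and the 5p arm in control. The change was 4.05 ± 0.54 (SE, limma adjusted p = 3.49e-05). The 5p arm itself was at 2666, 3173 and 2640, against 3291, 4029 and 3960. For miR-19c the log2 ratio was 3.94, 3.38 and 2.99, against -0.46, -1.96 and -1.49, a change of 4.74 ± 0.63 (SE, limma adjusted p = 3.49e-05). For miR-181b it was 1.74, 2.57 and 1.40, against -0.31, -3.42 and -2.22 (3.88 ± 1.04, SE, limma adjusted p = 0.0113). For miR-338a, which lies in an intron of the gene Aatk, the ratio fell, to -1.20, -1.16 and -0.95 at 12 h, against 0.12, 0.69 and 1.18 in control (-1.77 ± 0.54, SE, limma adjusted p = 0.022). All 4 stayed called with the GC correction. Levels of miR-181b and miR-338a were low and the arms close in control library 1, at 50 (5p) and 40 (3p) for miR-181b and 46 and 50 for miR-338a. These 2 ratios were called in 13 and 11 of 15 other settings.

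miR-181a is a pair whose arms have nearly the same base composition, 47.8% GC in 5p and 47.7% in 3p. Its 5p arm was at 5661, 9035 and 8091 at 12 h, against 11701, 20793 and 16588 in control, and its 3p arm at 4817, 6582 and 4977, against 2597, 1046 and 1674. The 5p sum led in every library of both groups, by less at 12 h. The log2 ratio of 3p to 5p was -0.23, -0.46 and -0.70 at 12 h, against -2.17, -4.31 and -3.31 in control. The 3p sum pools several forms, of which only ssa-miR-181a-1-3p was called. The log2 ratio changed by 2.80 ± 0.62 (SE, limma adjusted p = 0.00466). With the GC correction it was 2.79, but with arms so alike in GC content the correction nearly cancels in the ratio. The second value is therefore no separate check. The ratios of miR-101a (3.65), miR-7132a (5.45) and miR-152 (1.88) rose as well, and that of miR-140 fell by 2.86, also with the correction. The 3p arm of miR-7132a was at 70, 50 and 48 at 12 h and 0, 0 and 10 in control. The size of its ratio change therefore depends on the 1 added to each level. The ratios of miR-19c, miR-101a, miR-101b, miR-140, miR-181a and miR-7132a were past the threshold in every other setting in which they were tested. Other ratios depended on the correction: miR-128 changed by 2.18 without it and by -0.11 with it, miR-15a by -1.92 and 0.01, and miR-30a by -1.99 and -0.02. Without the correction the ratios of let-7g (-3.55), miR-21a (-2.97), miR-462a (-2.66), miR-214 (-1.78), miR-30d (-1.62), miR-194a (-1.55) and miR-22b (-1.45) also fell, and those of miR-92a (3.20), miR-7132b (2.12) and miR-221 (2.04) rose.

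**Figure D5:**
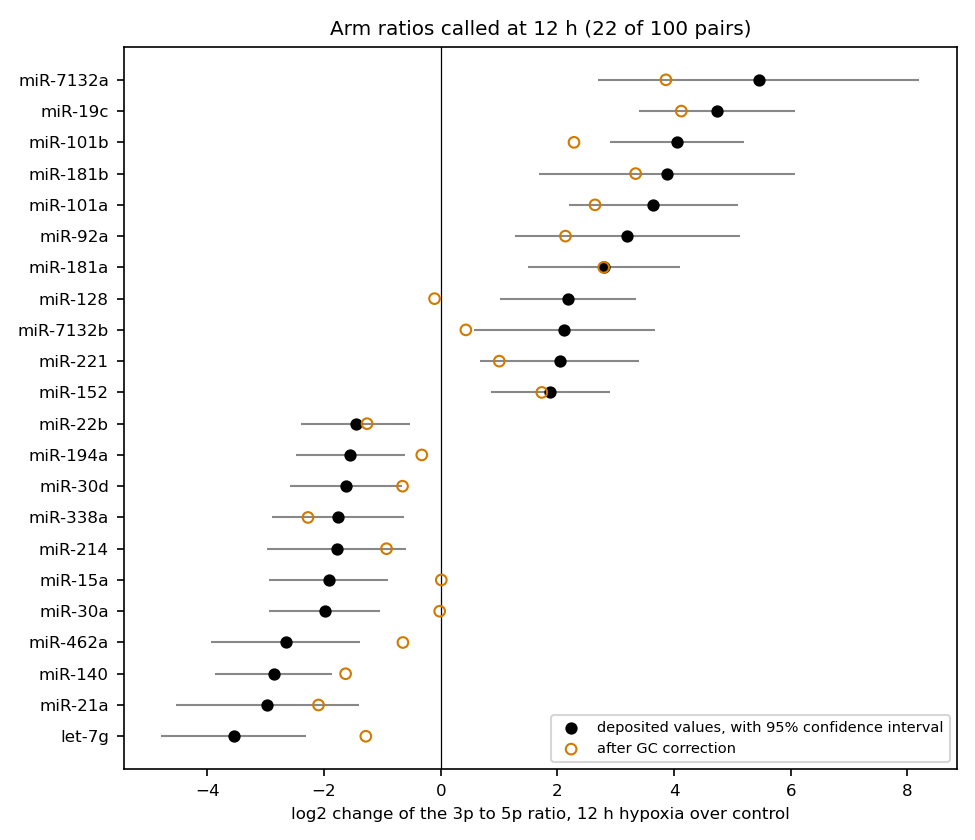
Log2 change of the ratio of the 3p to the 5p arm, each a family sum, 12 h hypoxia over control, for the 22 of 100 pairs called by limma. Filled points are from the deposited values with 95% confidence intervals, open points after the GC correction of each library. miR-19c (4.74 and 4.12) and miR-101b (4.05 and 2.28) stay far from 0 in both, while miR-128, miR-15a and miR-30a move to near 0. For miR-181a (2.80 and 2.79) the arms have nearly the same GC content, so the correction nearly cancels in the ratio.

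The counts on the lists are to be read against 4.66% higher and 2.25% lower over all tested profiles. On the list of hypoxia-responsive microRNAs (such as miR-210, miR-21, miR-199 and miR-181), 1 of 88 tested profiles was higher and 1 lower, with a median of 0.00 beside -0.19 over all tested profiles. ssa-miR-210-3p, the microRNA most often induced by hypoxia factors in mammals, was at 988, 1225 and 1478 at 12 h and 1018, 2578 and 2483 in control. Its groups overlapped, and it was not called (-0.62 ± 0.48, SE, limma adjusted p = 0.418). As families, miR-210-3p differed by -0.68 and the more abundant miR-210-5p by 0.33 (limma adjusted p = 0.343 and 0.536). With the GC correction these became 1.64 and 0.32 (limma adjusted p = 0.128 and 0.651). The sign of the 3p difference thus depends on the correction, and neither arm was called. The hepatocyte list had 3 of 63 higher and 0 lower (median 0.25), the metabolic list 4 of 49 higher and 1 lower (0.55), the red blood cell list 2 of 32 higher and 1 lower (0.41), and the endothelial and stromal list 2 of 34 higher and 1 lower (0.15). White blood cell and inflammation microRNAs had 1 of 38 higher (median -0.21), muscle 1 of 3 higher (1.81), and the miR-99, miR-100 and miR-125 family 1 of 22 lower (-0.54). No profile was called among 13 epithelial and bile duct, 8 neural and endocrine and 10 fish miR-462 and miR-731 cluster profiles (medians -0.36, -0.04 and -0.87). The let-7 median was -0.22. Scaled to the library total, the list medians lay between -1.87 and 0.83, and muscle alone stayed above 0, so the positive medians of the other lists depend on the deposited scale.

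Of the 10 most abundant profiles, ssa-let-7e-5p was called and the other 9 were not. ssa-miR-21b-5p, induced in many injured tissues, was at 585622, 513849 and 323628 at 12 h and 561539, 267005 and 275330 in control (log2 difference 0.41, limma adjusted p = 0.543). ssa-miR-22a-3p of hepatocytes was at 385577, 326863 and 329566, against 373161, 111629 and 112057 (1.05, 0.148). In both, control library 1 lay within the range of the 12 h libraries. ssa-miR-100a-5p_R-1, ssa-miR-30b-5p_R-1, ssa-miR-462a-5p and ssa-miR-143-3p_R+1 differed by 0.09, -0.22, -0.02 and 0.46, and ssa-miR-146a-5p, which dampens inflammation in mammals, by -1.03 (limma adjusted p = 0.225). Of the 2 most abundant profiles of each list, ssa-let-7e-5p and ssa-miR-499b-5p_R-1 were called. Those not called included ssa-miR-92a-3p (-0.52), ssa-miR-92b-3p (-1.27), tni-miR-27c (0.05), ssa-miR-26a-5p (0.78), ssa-miR-16a-5p (1.10), gmo-miR-16b-5p_R-1_1ss17TC (1.74), ssa-miR-21a-5p_R-3 (0.95), ssa-miR-200b-3p_R-1 (-0.84), ssa-miR-200a-3p_R-1 (-0.43), ssa-miR-133b-3p_L-1R+2 (-1.06), ssa-miR-128-3p (0.90), ssa-miR-375-3p (-0.80), ssa-miR-731-5p (-0.93) and ssa-miR-125a-5p (-0.50).

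The 12 h libraries were also set against those of the other durations. Against 3 h of hypoxia, limma called 95 of 622 profiles (15.3%), 54 higher (8.68%) and 41 lower (6.59%) at 12 h. Of the 43 profiles called against control, 37 were among these, in the same direction, and both comparisons use the same 12 h libraries. Without library 1, 2 or 3 of 12 h hypoxia, 7, 40 and 29 profiles were called against 3 h. ssa-miR-101b-3p_R+1 averaged 526 ± 264 in control, 343 ± 104 at 3 h, 6126 ± 1553 at 12 h and 3648 ± 650 at 24 h (SD, n = 3 each). ssa-miR-152-3p averaged 10243 ± 8284, 4861 ± 1158, 61191 ± 5397 and 34199 ± 25502 in the same order, and ssa-miR-181a-1-3p 854 ± 319, 727 ± 198, 4833 ± 1002 and 2217 ± 805. The 12 h means were the highest of the 4 in each of these 3 profiles. After 3 h of reoxygenation the 3 profiles averaged 8708 ± 4589, 33387 ± 6335 and 3336 ± 953 (SD, n = 3 each). The mean of ssa-miR-101b-3p_R+1 was thus higher after reoxygenation than at 12 h. cpi-let-7g-3p_1ss8GA averaged 756 ± 223, 915 ± 218, 102 ± 13.7 and 194 ± 112, and was lowest at 12 h.

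Against 24 h of hypoxia, limma called 0 of 622 profiles, with 96 at an unadjusted p under 0.05. With libraries weighted by their quality it called 155. A difference between 12 h and 24 h was therefore not shown by this fit for any named profile, nor were the durations shown to be alike. Against control, limma called 5 profiles at 24 h (0.804%), beside the 43 at 12 h, and after 3 h of reoxygenation 15 (2.41%), 11 of them higher (1.77%).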

How the data were processed

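Small RNA from trout liver was sequenced in 15 libraries, 3 in each of 5 groups. Per the labels' protocols, tissue was flash-frozen and RNA extracted with Trizol. The deposited table holds a score per miRNA row and library, a normalized level that the authors call TPM and rounded to whole numbers. Its totals are unequal and the low values are not multiples of 1 step, so read depth is unknown. The authors' deposited p-value column, from an unnamed test, was not used. No source used here names the aligner or genome build.

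Rows with the same 15 values were merged. log2(value + 1) was fitted with limma 3.58.1 in R 4.3.3 (empirical Bayes with trend, all 5 groups, mean of at least 10), with Benjamini-Hochberg adjustment over 622 profiles, 449 families or 363 seeds. A count test had been planned for count data and was not used, since the values are not counts. The GC correction subtracted a lowess curve (span 0.5) per library. In simulated data for 622 profiles, 200 were changed. Of these, 7.81%, 37.0%, 62.5% and 78.0% were called at log2 changes of 1, 2, 3 and 4, and 4.08% of calls were false. The simulation drew independent noise for each profile, with no trend with GC content and no library that stood apart. Its shares therefore do not carry over to the calls in these data. Named were the 12 largest rises and falls among called profiles without overlap and with a higher group mean of at least 50, the most abundant profiles, and the 2 most abundant members of each list. Members and lists were chosen with earlier results of these data known. Alternatives were other pseudocounts, filters, scalings, corrections, weights and samples.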

Additional observations from a re-analysis of the deposited data

Results flagged for a closer look

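Of the 12 largest rises and 12 largest falls, 22 also differed between 12 h and 3 h of hypoxia by limma, which is a test of the difference between the responses at these durations because the control libraries cancel. They are part of the 37 of all 43 called profiles that were also called in this direction against 3 h. Differences between 12 h and 3 h also followed GC content, with a median of 1.34 under 35% GC and -1.7 at 60% and above. For 3 h against control the same medians were 0.05 and -0.09. The values listed here are without the GC correction. The log2 differences of those higher at 12 h than at 3 h were 4.95 for ssa-miR-7132a-3p_R-1, 4.17 for ssa-miR-101b-3p_R+1, 3.74 for ssa-miR-101a-3p, 3.68 for ssa-miR-152-3p and 3.66 for ssa-miR-19a-3p_R+1. They were 3.12 for ssa-miR-19c-3p, 3.03 for ssa-miR-19a-3p, 2.77 for aca-miR-15a-5p_R+2_1ss10AG, 2.75 for ssa-miR-181a-1-3p, 2.63 for ssa-miR-126-3p and 2.51 for ssa-miR-499b-5p_R-1.

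Those of the 22 that were lower at 12 h than at 3 h were cfa-miR-486_R+1, listed at 0 at 12 h and at 303, 331 and 943 at 3 h (fitted difference -8.84, which is no bound on the fold), cpi-let-7g-3p_1ss8GA (-3.14), ssa-miR-125a-3p (-4.06), ola-miR-199a-5p_R+1_1ss18CG (-5.07) and pal-miR-9226-5p_1ss4AG (-3.07). The others were efu-miR-9226_2ss4AT22GA (-2.59), hsa-miR-4454_L-2_1ss8AG (-2.52), pal-mir-9226-p5_1ss18CA (-2.07), ssa-let-7h-3p_1ss4TG (-2.05), ssa-miR-33a-3p (-1.99) and cja-miR-9933_L-3_1ss12AT (-1.46). The same 12 h libraries enter both comparisons.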

How the results depend on the processing

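The number of profiles called against control, 43, became 18 when scaled to the total without miR-122, 5 with the GC correction, 282 with array weights, 105 with only the 12 h and control libraries in the fit, 10 to 81 without 1 library, and 13 without library 1 of both groups (chosen after seeing the data). Scaling also moved the split: 3 higher and 26 lower by library total, 8 and 10 by the total without miR-122, and 26 and 7 by quantiles, against 29 and 14. The 36 families became 16, 5, 219, 94, 3 to 54, and 15 in the same order. The 27 seeds became 7 with the GC correction, 166 with weights, 73 in the 12 h and control fit, 3 to 45 without 1 library and 5 without library 1 of both groups. The 95 profiles against 3 h became 169 by library total, 61 with the GC correction, 255 with weights, 7 to 121 without 1 library and 51 without library 1 of both groups. The 0 calls against 24 h became 155 with weights. The 22 arm ratios became 14 with the GC correction, 51 with weights and 14 to 37 without 1 library. The share difference of miR-122 lay between 24.7 and 29.2 points without 1 library. The causes of these moves were not tested.

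Reversed were pal-mir-9226-p5_1ss18CA (0.09) and the family miR-125a-3p (0.0048). Each was reversed with the GC correction alone and with the GC correction and the replicate block together. With the replicate block but no GC correction, the family miR-125a-3p stayed at -2.29. The labels do not pair the replicate numbers, and deviations of same-numbered libraries correlated at 0.153, 0.057 and 0.15. With the replicate block 54 profiles were called, and with the block and the GC correction 12 profiles, 2 families, 7 seeds and 59 profiles against 3 h. Over all results and settings, 1335 kept direction and side of the threshold, 407 lost it and 26 gained it. Read depth is unknown, so low levels have no counting error.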
